A study of Bos taurus with 47 samples.

Results

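The 100 genes described here held the most constant share of the messenger RNA reads over 47 libraries of bovine Longissimus muscle, taken from fetuses, newborn calves and heifers at slaughter. They were chosen by their measured values in these same libraries. Each count was divided by the total count of its library and put on a common scale as CPM, the reads a gene would have if every library had the same total. With no further scaling this is called plain CPM here. Of 27607 identifiers, 3333 had a mean of at least 20 CPM at each stage, after 2 identifiers were left out by the rule. The 100 with the smallest standard deviation (SD) of log2(CPM + 1) over all 47 libraries are called the steadiest genes. Their small SD and small stage differences with plain CPM are therefore a description and not a finding. With TMM, DESeq2's size factors or upper-quartile scaling, 3 ways of correcting the library total, 0 of the 100 stayed among the 100 steadiest, and all 100 lay lower in the fetus than at birth. That shared direction follows from the choice by plain CPM, since all 3 scalings raise the fetal totals against those at birth.

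The animals descended from crossbred Angus heifers of the F0 generation. Over the first 84 days of gestation these gained 0.28 kg per day (low gain, LG) or 0.79 kg per day (moderate gain, MG), and were then managed together. Their F1 daughters gave Longissimus thoracis at birth, before suckling (8 LG and 8 MG libraries), and at slaughter. The slaughter libraries were 8 LG and 7 MG as labelled, which was used here, where the protocol text has 7 LG and 8 MG. Gestation day 84 F2 fetuses gave Longissimus dorsi from 8 LG and 8 MG libraries. No group was left untreated, and LG and MG name the gain of the dam for the F1 and of the granddam for the F2. Fetus and F1 heifer also differ in generation and in the region of the muscle. Each stage came as a table of its own, so differences in stage and in sampling or library preparation cannot be told apart.

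A reference gene is one whose level is taken as fixed, so that other transcripts can be read against it in quantitative PCR or in the scaling of sequencing libraries. RNA sequencing measures shares: when a few very abundant muscle transcripts take more of the reads, every other gene's share falls even if its own number of molecules does not. Scaling methods such as TMM (trimmed mean of M values) correct the library total so that the typical gene does not differ between libraries, which assumes that most genes do not change.

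Total counts ran from 13308433 to 32547565 per library. Across stages the make-up of the libraries differed. The 10 most abundant genes of a library took 11.5% ± 1.44 (SD, n = 16) of its counts in the fetus, 23.7% ± 2.28 (SD, n = 16) at birth and 23.8% ± 1.16 (SD, n = 15) at slaughter. How far these 10 bear on the gap between plain CPM and TMM was not tested. Fetus LG 41, fetus MG 20 and birth MG 17 stood apart in the levels of the steadiest genes and are followed below. The reference table used here matched a symbol to 0 identifiers and the files pair none, so genes are given by identifier, their known functions are not described, and the muscle label was not checked against marker genes. In tissue RNA, fewer cells of a type and less RNA per cell cannot be told apart.

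Among the 100, the SD ran from 0.14 to 0.26 on the log2 scale, with a median of 0.23. Over all 3333 genes the median was 0.65, with quartiles of 0.46 and 0.92 and a highest value of 3.99. The ratio of the highest to the lowest library was 1.64 to 3.05 among the steadiest genes, with a median of 2.104, against a median of 5.79 over the 3333. It stayed under 2 for 35 of the 100. Counting error was a small part of this spread: it came to a median of 3.61% of a gene's variance and at most 16.5%, and the lowest count of any of the 100 in any library was 230.

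ENSBTAG00000016599 had the smallest SD of all, 0.14. In the fetus its lowest, median and highest libraries had 66.1, 77.7 and 108.2 CPM, with a mean of 79.8 ± 10.3 (SD, n = 16). At birth the same values were 74.4, 86.3 and 99.6 CPM (mean 85.5 ± 6.05, SD, n = 16). At slaughter they were 67.3, 81.4 and 94.5 CPM (mean 82.4 ± 6.84, SD, n = 15). The 3 ranges overlapped almost wholly, and the fetal libraries MG 23 and MG 45 held both the lowest and the highest value. LG and MG overlapped too: in the fetus LG libraries ran from 68.6 to 89.8 CPM and MG libraries from 66.1 to 108.2 CPM.

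ENSBTAG00000018115, second with an SD of 0.15, was expressed higher. Its lowest, median and highest values were 225.5, 269.0 and 396.0 CPM in the fetus, 241.9, 266.0 and 307.0 CPM at birth, and 233.4, 295.9 and 319.5 CPM at slaughter. Fetus MG 45 again held the highest value. ENSBTAG00000011787, with an SD of 0.16, had 85.5, 103.9 and 139.2 CPM in the fetus, 82.9, 98.8 and 123.4 CPM at birth, and 86.1, 97.6 and 124.8 CPM at slaughter. For this gene the highest library was fetus LG 41, and all 3 stages overlapped.

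**Figure D1:**
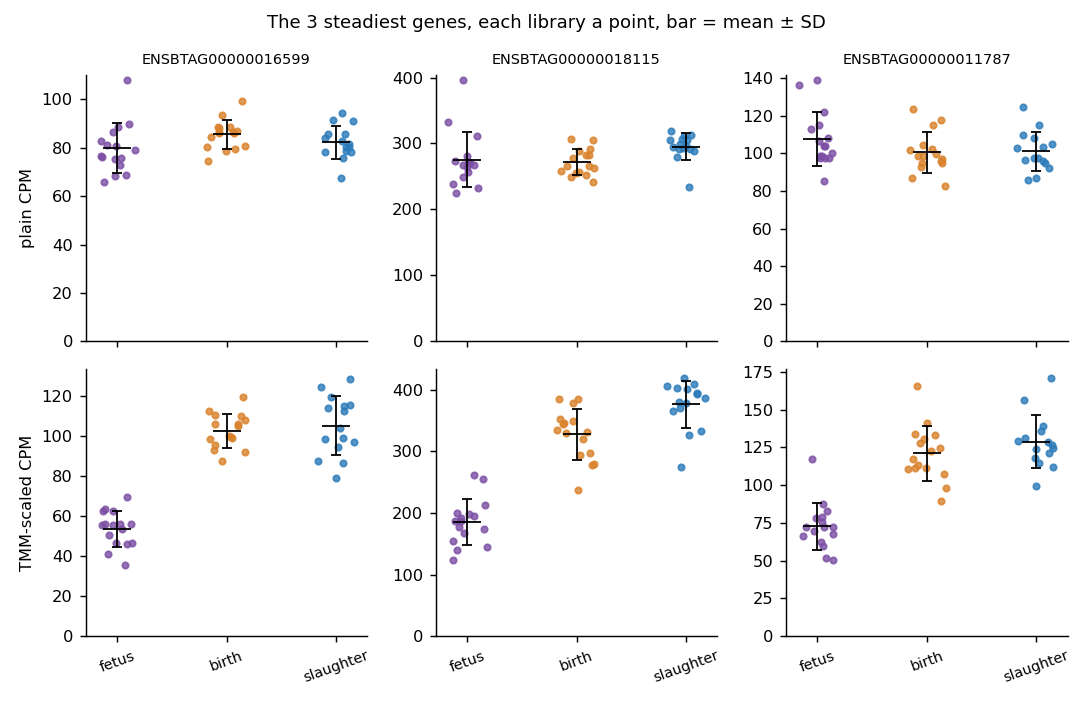
CPM of ENSBTAG00000016599, ENSBTAG00000018115 and ENSBTAG00000011787 in each of the 47 libraries by stage, with plain CPM in the upper row and TMM-scaled CPM in the lower row; each point is a library and the bars are mean ± SD. With plain CPM the 3 stages overlap, and with TMM the fetal means, such as 53.6 for ENSBTAG00000016599, lie below those at birth and slaughter.

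The next 7 by SD were ENSBTAG00000019803, ENSBTAG00000018783, ENSBTAG00000016211, ENSBTAG00000017035, ENSBTAG00000012470, ENSBTAG00000001776 and ENSBTAG00000012644, with SDs of 0.17 to 0.19. They spanned a wide range of levels. ENSBTAG00000001776 had mean values of 148.3 ± 21.9 CPM in the fetus (SD, n = 16), 132.0 ± 14.4 at birth (SD, n = 16) and 137.1 ± 15.4 at slaughter (SD, n = 15). ENSBTAG00000012470 stood at 21.2 ± 3.12, 22.4 ± 2.95 and 21.7 ± 2.30 CPM in the same order, just above the floor of 20 CPM that the rule set. A level in CPM is not divided by transcript length, so it gives the reads a gene would yield and no order of transcript abundance between genes.

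Mean levels of the 100 ran from 21.8 to 3951 CPM with a median of 67.3, against a median of 76.9 over the 3333. There were 33 genes between 20 and 50 CPM, 30 between 50 and 100, 30 between 100 and 200, and 7 above 200. The same bands held 26.2%, 35.6%, 20.7% and 17.5% of the 3333. ENSBTAG00000010156 stood far above the rest. Its lowest, median and highest libraries had 2666, 3383 and 4633 CPM in the fetus, 3510, 4010 and 6194 CPM at birth, and 2911, 3914 and 5170 CPM at slaughter. Its highest library was birth MG 17. ENSBTAG00000005664 and ENSBTAG00000008985 came next, with fetal means of 423.9 ± 110.7 and 394.9 ± 62.4 CPM (SD, n = 16). ENSBTAG00000006767 and ENSBTAG00000048280 were, with ENSBTAG00000012470, the 3 lowest.

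Together the 100 took 1.29% ± 0.0899 of the counts in the fetus (SD, n = 16), 1.34% ± 0.111 at birth (SD, n = 16) and 1.31% ± 0.104 at slaughter (SD, n = 15). Without ENSBTAG00000010156 the other 99 took 0.933%, 0.910% and 0.906%. Both sums varied by less between stages than between libraries of a stage.

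At the edge of the set, the last 3 inside were ENSBTAG00000020940, ENSBTAG00000003897 and ENSBTAG00000010659, with SDs of 0.256, 0.258 and 0.259. The first 3 outside were ENSBTAG00000009181, ENSBTAG00000018973 and ENSBTAG00000010740, at 0.259, 0.259 and 0.260. No gap separates the set from the genes that follow. The 2 identifiers the rule left out would not have entered. ENSBTAG00000026199 had an SD of 1.21, rank 2953 of 3335, and stood at 2180 ± 267 CPM in the fetus (SD, n = 16), 430 ± 67.6 at birth (SD, n = 16) and 357 ± 47.8 at slaughter (SD, n = 15). ENSBTAG00000014731 had an SD of 1.34, rank 3067, with 2596 ± 397, 21177 ± 2959 and 13348 ± 1861 CPM.

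The small overall SD joined a small difference between stages to a small spread within each. The 3 stage means of a steadiest gene spanned 0.07 to 0.50 on the log2 scale, with a median of 0.27, against 1.23 over the 3333. Differences between stages made up a median of 24.99% of the variance of the 100, with a range of 1.56% to 72.6%, against a median of 76.4% over the 3333. A small stage range alone did not fill the set: 453 genes had one no wider than the widest of the 100. The 353 of them outside the set had a median SD within the fetus of 0.44, within birth of 0.23 and within slaughter of 0.18.

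With plain CPM the 100 moved by little and in both directions. Birth minus fetus was a median of -0.05 (range -0.41 to 0.41), slaughter minus birth -0.02 (-0.50 to 0.41) and slaughter minus fetus -0.06 (-0.42 to 0.45), all as differences of mean log2(CPM + 1). Over the 3333 the medians were -0.32, -0.16 and -0.52. Of the 100, 0 had fetal libraries lying wholly below or wholly above the F1 libraries, where 8.04% and 22.5% of the 3333 did. The fetus was the highest stage for 45 of the 100, birth for 30 and slaughter for 25, against 55.3%, 22.5% and 22.2% of the 3333. Every one of the 6 possible orders of the stages occurred, from 10 genes (slaughter, birth, fetus) to 24 genes (fetus, slaughter, birth).

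The widest moves show what the rule tolerated. ENSBTAG00000003897 was highest at birth, with lowest, median and highest values of 29.8, 36.98 and 44.4 CPM in the fetus, 42.0, 49.0 and 53.8 CPM at birth, and 31.9, 33.5 and 37.6 CPM at slaughter. Its birth libraries lay above all slaughter libraries and overlapped the fetal ones at the edge. ENSBTAG00000007537 had 58.4, 77.4 and 93.1 CPM in the fetus and 45.1, 58.0 and 66.4 CPM at birth, a difference of -0.41 with plain CPM, where the TMM fit below gave 0.41. ENSBTAG00000005854 had 69.0, 84.6 and 110.6 CPM at birth and 101.2, 114.9 and 125.9 CPM at slaughter, where it rose under TMM too (0.50, SE 0.08, adjusted p = 2.27e-06, edgeR). ENSBTAG00000045957 stood at 102.0, 120.4 and 135.8 CPM at birth and 78.8, 83.5 and 95.2 CPM at slaughter, where no library reached the birth range. ENSBTAG00000020940 climbed from 79.8, 105.1 and 139.8 CPM in the fetus to 115.8, 145.1 and 177.4 CPM at slaughter, with overlap.

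**Figure D2:**
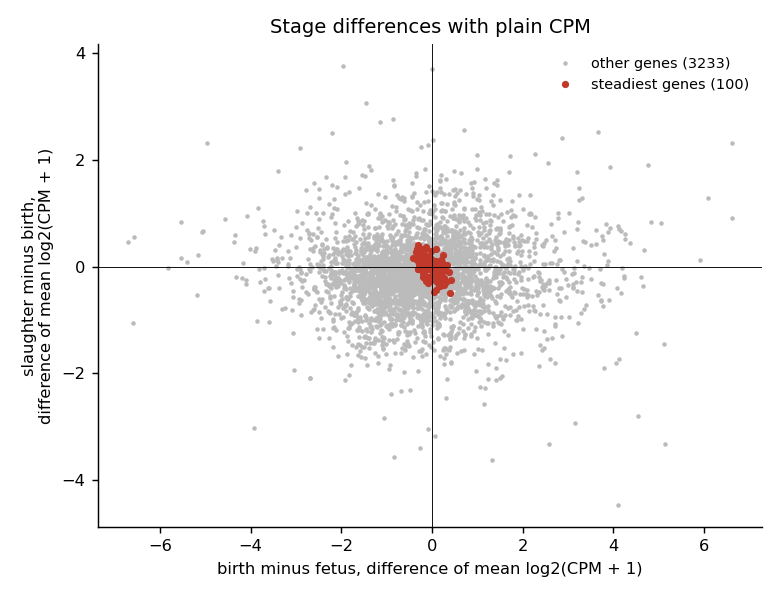
Difference of mean log2(CPM + 1) between birth and fetus (horizontal) and between slaughter and birth (vertical) with plain CPM; each point is a gene, red for the 100 steadiest and grey for the other 3233 genes with a mean of at least 20 CPM at each stage. The red points lie between -0.41 and 0.41 horizontally and between -0.50 and 0.41 vertically, as the rule favours.

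Spread within a stage was widest in the fetus. The SD within the fetal libraries had a median of 0.24 over the 100 (range 0.13 to 0.38), within birth 0.17 (0.07 to 0.32) and within slaughter 0.14 (0.07 to 0.26). The 3333 kept the same order, with medians of 0.38, 0.23 and 0.19. The fetus was the widest stage for 77 of the 100 and for 80.0% of the 3333. Slaughter was the narrowest for 64 of the 100, birth for 31 and the fetus for 5. ENSBTAG00000017298 had the largest fetal SD: its libraries ran from 22.8 to 65.9 CPM around a median of 36.4, with the highest in LG 41, against an SD of 3.54 CPM around a mean of 32.5 at birth (n = 16) and 3.38 around 33.0 at slaughter (n = 15).

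A pair of fetal libraries held part of that spread. In fetus LG 41, 18 of the 100 lay over 0.5 above their own mean on the log2 scale and 13 lay over 0.5 below it, so its median deviation was near 0, at -0.02. It was the highest of the 47 libraries for 22 of the genes and the lowest for 13. In fetus MG 20, 72 of the 100 lay below their own mean and 28 above, with a median deviation of -0.26. There 18 lay over 0.5 below and 6 over 0.5 above. Fetus MG 20 was the lowest library for 20 genes and the highest for 3. Birth MG 17 had a median deviation of 0.20, with 77 genes above their own mean and 23 below. Of its genes, 12 lay over 0.5 above and 0 over 0.5 below. Fetus MG 45 had 15 genes over 0.5 from their own mean and was the highest library for 12. Leaving it out kept 92 of the 100 in the set, and leaving out birth MG 17 kept 96. Fetus MG 45 stayed in the fits that left out the 3 other libraries. Without fetus LG 41 and fetus MG 20 the median fetal SD of the 100 was 0.19, against 0.30 over the 3333, and still above the values at birth and slaughter.

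**Figure D3:**
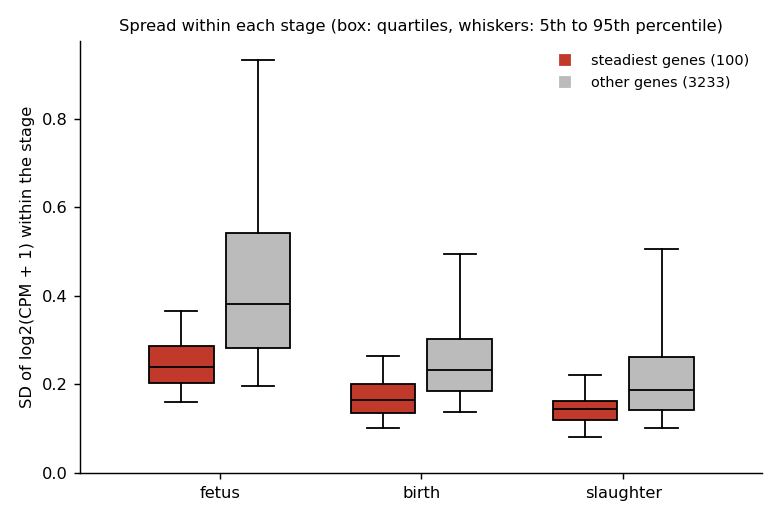
SD of log2(CPM + 1) within each stage for the 100 steadiest genes (red) and the other 3233 genes (grey); boxes are quartiles and whiskers run from the 5th to the 95th percentile. The medians of the 100 fall from 0.24 in the fetus to 0.17 at birth and 0.14 at slaughter.

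A second scaling removed the steadiness between the fetus and later stages. TMM factors, which multiply the library total, were 1.51 ± 0.183 in the fetus (SD, n = 16), 0.838 ± 0.0871 at birth (SD, n = 16) and 0.790 ± 0.0633 at slaughter (SD, n = 15). The fetal range, 1.19 in LG 41 to 1.93 in MG 20, did not overlap that of birth, 0.723 to 1.08, or of slaughter, 0.731 to 0.938. With TMM the SD of the 100 had a median of 0.47, against 0.58 over the genes with a mean of at least 20 TMM-scaled CPM at each stage. Of the 100, 0 stayed among the 100 steadiest, 4 ranked within the first 500, and 14 dropped below 20 CPM at a stage and had no rank. The median rank of the rest was 1157.5 of 3294. DESeq2's size factors and upper-quartile scaling also kept 0 of the 100, with median SDs of 0.47 under both.

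Under TMM the fetal libraries of 30 of the 100 lay below all F1 libraries, where those of 21.7% of the 3333 did. Those of 0 lay above all F1 libraries, beside 5.46% of the 3333, and the other 70 genes overlapped. ENSBTAG00000016599 was among the 30. Its TMM-scaled level was 53.6 ± 8.93 CPM in the fetus (SD, n = 16), 102.7 ± 8.52 at birth (SD, n = 16) and 105.2 ± 14.8 at slaughter (SD, n = 15). The fetal libraries, 35.3 to 69.7, now lay below all of those at birth, 87.5 to 119.7, and at slaughter, 79.2 to 128.7. ENSBTAG00000018115 and ENSBTAG00000011787 still overlapped: their highest fetal libraries had 262.1 and 117.1 TMM-scaled CPM, and their lowest birth libraries 237.6 and 89.8. ENSBTAG00000000241 held best, with a TMM SD of 0.30 at rank 254. Its plain values were 130.01 ± 16.7 CPM in the fetus (SD, n = 16), 104.1 ± 8.89 at birth (SD, n = 16) and 100.7 ± 5.27 at slaughter (SD, n = 15).

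**Figure D4:**
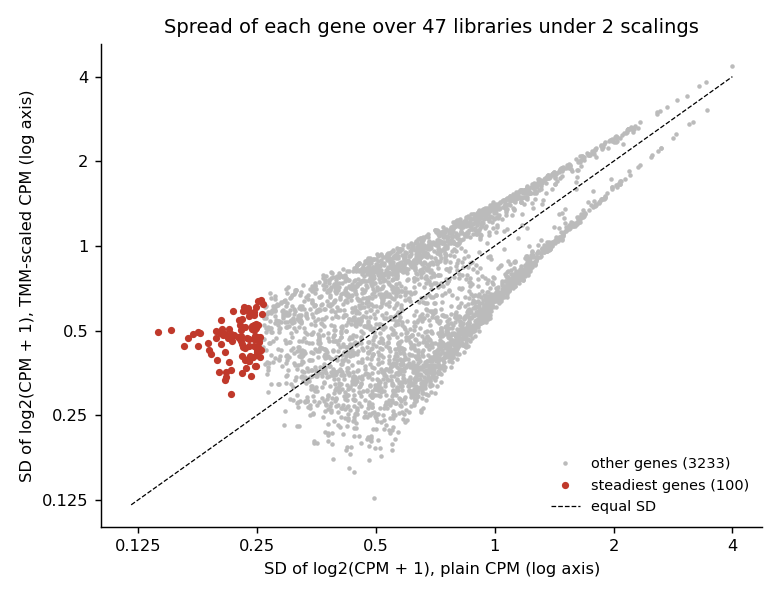
SD of log2(CPM + 1) over 47 libraries with plain CPM (horizontal) and with TMM-scaled CPM (vertical), both on log axes; each point is a gene, red for the 100 steadiest, and the dashed line marks equal SD. All red points lie above the line, at TMM SDs of 0.30 to 0.64.

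Raw counts were then tested across all genes. With TMM, edgeR's quasi-likelihood test over 15264 genes, at a Benjamini-Hochberg adjusted p of 0.05, called 100 of the 100 higher at birth than in the fetus and 0 lower, where 38.4% of all genes were called higher and 44.7% lower. At slaughter against fetus it called 100 higher and 0 lower, beside 38.3% and 46.1% of all genes. For slaughter against birth it called 29 higher and 11 lower, beside 28.9% and 28.2%. The choice of the genes used these contrasts, so the counts describe the set and support nothing. The fitted birth minus fetus log2 fold change had a median of 0.79 and a range of 0.41 to 1.25. For ENSBTAG00000016599 it was 0.94 (SE 0.08, adjusted p = 5.84e-15, edgeR's quasi-likelihood test), and for ENSBTAG00000007537 the smallest of the 100, 0.41 (SE 0.09, adjusted p = 2.96e-05).

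Without TMM the same test on plain library totals called 18 of the 100 higher and 36 lower at birth against fetus. Of all 15264 genes it called 2995 higher and 9639 lower. For slaughter against birth it called 16 and 27 of the 100, beside 3734 and 4845 of all genes. For slaughter against fetus it called 11 and 31, beside 3216 and 9715. The median of all 15264 genes moved with the scaling, from -0.13 with TMM to -0.99 with plain totals for birth minus fetus, and from -0.20 to -1.13 for slaughter minus fetus. Plain totals also changed the split of all calls: 23.7% of the genes called between birth and fetus were higher at birth, against 46.2% with TMM. For slaughter against fetus these shares were 24.9% and 45.4%. A change of scaling moves all genes of a library alike, so the distance of the 100 from the median gene is nearly fixed whatever the scaling. From the median of all 15264 it was, with TMM, 0.92 for birth minus fetus, 1.04 for slaughter minus fetus and 0.04 for slaughter minus birth. Those genes were not held to the floor of 20 CPM. The 3333 that were had TMM medians of 0.51, 0.39 and -0.08 in the same order, as differences of mean log2(CPM + 1). Those of the 100 were 0.78, 0.85 and 0.06. For both contrasts with the fetus the 100 thus lay nearer to the 3333 than to all genes tested. Whether the plain or the TMM values lie closer to RNA per cell was not tested, since no spike-in or cell number was used here.

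The 100 genes with the smallest SD under TMM were wholly other genes. Their SD under TMM ran from 0.13 to 0.25, and 89 of them were also among the 100 steadiest with DESeq2's size factors, 71 with all 3 of TMM, DESeq2 and upper quartile. With plain CPM their birth minus fetus difference had a median of -0.78 on the log2 scale and a range of -1.18 to -0.38. Between birth and fetus the genes of each set thus shared 1 direction when read with the scaling of the other. Each set was chosen for small stage differences under its own scaling, and TMM shifts all genes of a library alike. The shared direction therefore follows from the choice and is not a finding about these genes.

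As a use as reference genes, the geometric mean of the 100 gave a scaling factor for each library. It was 1.02 ± 0.0572 in the fetus (SD, n = 16), 0.998 ± 0.0655 at birth (SD, n = 16) and 0.984 ± 0.0494 at slaughter (SD, n = 15). It therefore stayed near the plain library total, and lay below TMM by 0.56 on the log2 scale in the fetus and above it by 0.26 at birth and 0.32 at slaughter. Its extremes were fetus MG 20, at 0.880, and birth MG 17, at 1.14. The mean log2(CPM + 1) of the 100 varied over the 47 libraries with an SD of 0.083. The factor from the 3 steadiest alone differed from that of all 100 with an SD of 0.090 on the log2 scale, from 5 genes with 0.076, and from 10 with 0.056. The largest single departures were 0.29, 0.18 and 0.11. The departures for 3 and 5 genes were thus about as large as the variation of the 100 between libraries, and those factors lie near 1 because the genes were chosen for constant plain CPM.

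**Figure D5:**
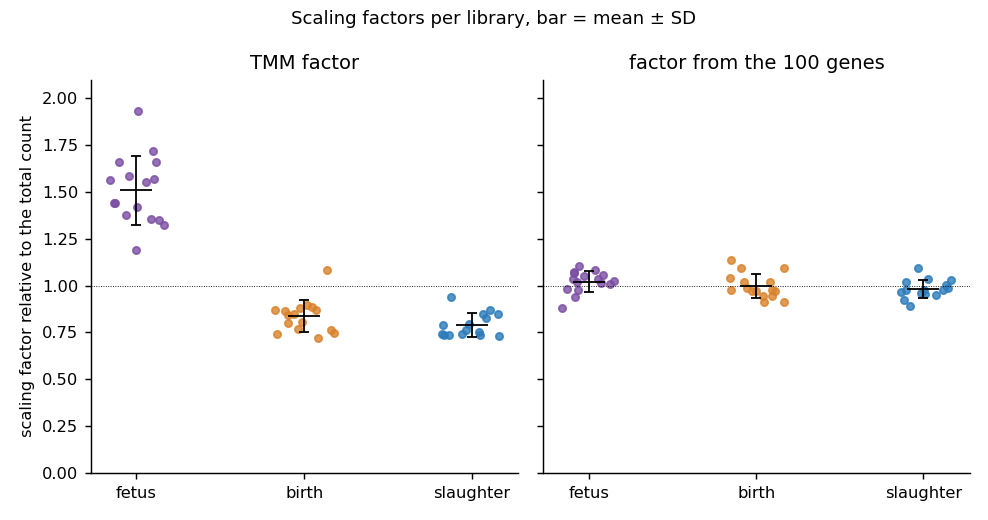
Scaling factor relative to the total count for each library by stage, from TMM (left) and from the geometric mean of the 100 steadiest genes (right); each point is a library and the bars are mean ± SD. TMM averages 1.51 in the fetus and 0.838 at birth, and the factor from the 100 genes 1.02 and 0.998.

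Ratios between genes of a library do not depend on any scaling. Over the 4950 pairs among the 100, the SD of the log2 ratio of counts ran from 0.12 to 0.45 with a median of 0.30. For the 100 steadiest under TMM the median was 0.28. Each set was chosen for a small SD under its own scaling, which already bounds the SD of the ratios within it. These values are therefore a description and no independent check. The tightest pair was ENSBTAG00000019443 with ENSBTAG00000019136, whose mean log2 ratio was -0.29 in the fetus, -0.26 at birth and -0.18 at slaughter. When all 3333 genes were ranked by the mean SD of their log2 ratio to every other, 15 of the 100 were among its first 100, as were 27 of the 100 steadiest under TMM. ENSBTAG00000000241 ranked first and ENSBTAG00000017424 ranked 4 of all 3333. The median rank of the 100 was 278.5 and the last was 823.

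Choice and reading can be held apart by the maternal groups. The 100 steadiest genes chosen in the 24 LG libraries alone had a median SD of 0.26 in the 23 MG libraries, against 0.65 for all genes there. All 100 lay under that median and 87 lay in the lowest 10%. Chosen in MG and read in LG, the figures were 0.26 against 0.65, with 100 under the median and 90 in the lowest 10%. The lists chosen in LG and in MG shared 46 genes, all of them among the 100. Both readings hold the same 3 stages and use plain CPM, so they carry over the stage pattern of the libraries.

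A stage not used in the choice was followed less well. Here the floor of 20 CPM applied only to the stages used in the choice, and values were plain CPM. All genes then numbered 3846 without fetus, 3537 without birth and 3841 without slaughter, and could be low in the stage left out. Of 100 genes chosen on birth and slaughter alone, 65 had a fetal mean over 0.5 on the log2 scale from their mean in the other stages, where 75.9% of all genes did, and 31 lay over 1 away, beside 52.3%. Only 17 of those 100 belonged to the set chosen on all 3 stages. Of genes chosen without birth, 26 were over 0.5 away at birth, beside 48.5% of all genes. Of those chosen without slaughter, 33 were over 0.5 away there, beside 65.9%. Within a single stage the list changed too: of the 100, 15 were among the 100 steadiest within the fetus, 19 within birth and 9 within slaughter. None was in all 3 of these lists, 8 were in a pair of them, and 65 in none.

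LG and MG were compared within each stage, the maternal treatment the study was built around. Neither the 100 nor other genes passed an adjusted p of 0.05 by edgeR's quasi-likelihood test: 0 of 14200 genes (0%) in the fetus, 0 of 12485 (0%) at birth and 0 of 12577 (0%) at slaughter, and 0 of the 100 each time. DESeq2 and limma voom also called 0. At an unadjusted p under 0.05, edgeR gave 1 of the 100 in the fetus, 1 at birth and 0 at slaughter, where 0.718%, 4.12% and 1.83% of all genes lay. DESeq2 and limma voom gave the same counts for the 100. The gene in the fetus was ENSBTAG00000019794, lower in LG by a log2 fold change of -0.35 (SE 0.12, adjusted p = 1.00 by edgeR). At birth it was ENSBTAG00000018112, at 0.22 (SE 0.09, adjusted p = 0.985 by edgeR). Both were named after their values were seen. Fitted LG minus MG changes of the 100 lay between -0.35 and 0.34 in the fetus, -0.20 and 0.22 at birth, and -0.16 and 0.16 at slaughter. Their median size was 0.09, 0.06 and 0.04, against 0.16, 0.11 and 0.08 over all genes tested. Since a small SD over LG and MG libraries chose them, a small difference between LG and MG was part of the choice.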

How the data were processed

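Libraries were polyA-selected and non-directional and read as 150 bp pairs, per the labels' protocols, so counts of genes that overlap on opposite strands can be mixed. The authors deposited raw read counts per gene in 3 tables, 1 for each stage. The submitters' processing notes name STAR 2.7.3a, edgeR 3.24.3, FastQC 0.11.8 and MultiQC 1.9. Build, annotation and counter: not given in the sources used here. In the slaughter table the header has no name over the identifiers, and the names were read as heading the value columns in order, from the first.

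CPM used all counts of a library, and 1 was added before log2. Members and lists were chosen with earlier results of these data known. TMM factors and tests came from edgeR 4.0.16 in R 4.3.3 (filterByExpr, robust quasi-likelihood fit, Benjamini-Hochberg at 0.05). Stages were compared in 1 model over 47 libraries as means of their LG and MG groups, and LG with MG within each stage. DESeq2 1.42.0 and limma 3.58.1 voom were alternatives, beside other scalings, filters, measures of spread and leaving out each library in turn. The steps were run on simulated data with a common profile for all stages, apart from genes raised and lowered in the fetus in equal number. Such data hold no large shift in make-up, so they cannot bear on the gap between plain CPM and TMM. Genes were named by rank: the 10 smallest SDs, those at the edge, the 3 highest and 3 lowest means, at most 2 rises and 2 falls between stages, and the largest fetal SD. The gene that held best under TMM, the tightest pair and ENSBTAG00000017424 were added after seeing values. Lists of known reference genes and pathways, cell type markers and promoter motifs were planned, needed symbols and were not run. No label ties each library to an animal of its own, and p-values then measure only the spread between libraries, which may be technical. In 161 pairs of libraries of a group, chi-square per degree of freedom was at least 23.2, so none was merged. Library numbers recur across stages, each time with the same treatment. Deviations from the mean of each stage and treatment group correlated over 0.1 in 2 of 7, 1 of 6 and 6 of 15 same-numbered pairs. Such correlations cannot exclude that same-numbered libraries come from the same or related animals. The numbers were not used to pair libraries in the main test, and a block by number is given below.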

Additional observations from a re-analysis of the deposited data

Results flagged for a closer look

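Of 42 groups of values examined, 5 held a library far from the others of its group by Dixon's test, where chance gives about 1 in 20. The SD of the deviations of the 100 genes from their own means was 0.45 in fetus LG 41. Their mean log2(CPM + 1) was 6.10 in fetus LG 29. ENSBTAG00000011787 stood at 123.4 CPM in birth MG 21, and ENSBTAG00000018115 at 233.4 CPM in slaughter LG 14. The total count of slaughter MG 47 was 32547565.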

How the results depend on the processing

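Of the 100 genes, 0 stayed among the 100 steadiest with TMM, 0 with DESeq2's size factors and 0 with upper-quartile scaling, where their median SD was 0.472, 0.473 and 0.470 against 0.234. By choice of measure, 65 stayed with a floor of 50 CPM, 49 with the median absolute deviation, 20 with the SD within stages, 39 with the range of stage means, and 15 with the ratio measure added after seeing the data. With the libraries of the fetus, birth or slaughter alone, 15, 19 and 9 stayed. Leaving out 1 library kept 78 to 100, lowest without fetus LG 41, and 73 genes were kept in every such set.

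Plain library totals called 18 of the 100 higher and 36 lower at birth against fetus (2995 and 9639 of all genes). They called 16 and 27 at slaughter against birth (3734 and 4845), and 11 and 31 at slaughter against fetus (3216 and 9715). Scaling to the 100 themselves gave 26 and 34 (3009 and 9560 of all genes), 26 and 25 (3861 and 4703), and 23 and 27 (3283 and 9565). Medians of the 100 turned to -0.0492 and -0.0258 for birth minus fetus, -0.0710 and -0.0199 for slaughter minus fetus under these scalings, and -0.0142 for slaughter minus birth with plain totals. These follow from the scaling itself. For slaughter against birth, 6 were lower with DESeq2's size factors in edgeR, beside 4059 of 15264 genes. Without the 3 libraries that stood apart, chosen after seeing the data, 20 were lower, beside 4634 of 15108 genes. The replicate block called 11 of the 100 higher at slaughter than at birth over the 6 shared numbers, and 16 lower. Of all 12526 genes it called 3183 higher and 3613 lower. The same libraries without the block gave 10 higher and 14 lower (3211 and 3510 of all genes). Over all libraries the counts were 29 and 11 (4416 and 4307 of 15264 genes). What moved these counts was not tested. The replicate block called 99 higher at birth than in the fetus, beside 4641 of 13566 genes. At slaughter against fetus it called 100 higher, beside 5642 of 13720 genes. Same-numbered libraries correlated from -0.26 to 0.13, 0.02 to 0.26 and -0.31 to 0.31. In no comparison did every library correlate best with its own number (2 of 7, 3 of 6 and 1 of 15 did). The SD of each of the 27 genes picked by rank, not all of which are named above, was larger with all 3 scalings (81 values). Genes added after seeing values were not among them. Of the other counts, 170 stayed within 1.5 times, and 25 medians kept their direction. Among these, slaughter minus birth ran from 0.0055 scaled to the 100 to 0.108 with DESeq2's size factors, against 0.067, and was 0.040 without the 3 libraries that stood apart. Depth limits little here, with at least 230 counts for each of the 100 in every library.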
